A study of Homo sapiens with 5 samples.

Results

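The chemokine gene clusters of HL60 cells were described from chromosome contacts, through 10 genes that lie in 5 bins of 500 kb on hg19. CXCL8, CXCL1 and CXCL2 share the bin chr4:74500001-75000000, and CXCL10 lies in chr4:76500001-77000000. On chromosome 17, CCL2 lies in chr17:32500001-33000000, and CCL3, CCL4 and CCL5 share chr17:34000001-34500000. CCL22 and CCL17 share chr16:57000001-57500000. Each gene bin was taken with 5 bins on either side. Because the windows overlap, this gave 40 bins, 15 on chromosome 4, 14 on chromosome 17 and 11 on chromosome 16, of 6083 bins on the autosomes and chromosome X. Genes that share a bin share every value below, since the matrices resolve bins and not genes. A bin is named by its best known gene.

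HL60 is an established human promyelocytic leukemia line. Contacts were measured by Hi-C, in which crosslinked chromatin is cut with HindIII, ligated and sequenced, so that DNA segments lying close together in the nucleus are counted as pairs. Cells had received ATRA (all-trans retinoic acid), an inducer of granulocyte-like differentiation in this line, or TPA, a phorbol ester under which the line becomes macrophage-like, or were untreated. ATRA was held in 1 matrix of 1 library, TPA in 1 matrix of 2 merged libraries, and untreated cells in 1 matrix of 2 merged libraries. No other agent or genetic change is named in the labels, with doses and times not given in the sources used here. Each condition is therefore 1 measurement, no spread between replicates exists, no test between conditions was made, and library and treatment cannot be told apart. Rise and fall below name the direction between matrices only. All intervals are exact 95% intervals that cover counting error only.

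Chemokines are small secreted proteins that bind receptors on leukocytes and direct their migration. Many of their genes lie side by side in clusters that arose by gene duplication. The CXC genes on chromosome 4 include attractants of neutrophils and, farther along, interferon-induced attractants of T cells, and the CC genes on chromosome 17 encode attractants of monocytes and T cells. Differentiated granulocytes and macrophages are major sources of several of these proteins. Hi-C reads no expression, so the values below describe the folding of the loci and not the output of the genes.

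Of 20 further chemokine genes on a list of cluster neighbours, 19 lay within 500 kb of a member in RefSeq's GRCh38.p14 annotation. They were CXCL3, CXCL5, CXCL6, PF4, PF4V1 and PPBP beside CXCL1 and CXCL2, CXCL9 and CXCL11 beside CXCL10, and CCL1, CCL7, CCL8, CCL11 and CCL13 beside CCL2. CCL14, CCL15, CCL16, CCL18 and CCL23 lay beside CCL3 or CCL5, and CX3CL1 beside CCL22. CXCL13 was farther away. Their hg19 bins were not assigned, so they carry no values of their own here.

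RefSeq promoters of GRCh38.p14, from 250 bases before to 50 after the gene start, were matched for 6 of the 10 genes. Those of CXCL8, CXCL1, CXCL10 and CCL22 are shown, because the results turn on the CXCL8, CXCL10 and CCL22 bins and CXCL1 shares the CXCL8 bin. Capitals mark AAGCTT, the HindIII site at which the Hi-C libraries were cut, and GGAATTTCC, a kappaB-type site, each searched on both strands without overlap between them. The CXCL8 promoter is at chr4:73740319-73740618 on the plus strand, that of CXCL1 at chr4:73869143-73869442 on the plus strand, that of CXCL10 at chr4:76023448-76023747 on the minus strand, and that of CCL22 at chr16:57358533-57358832 on the plus strand. These coordinates are of GRCh38.p14 and are not comparable with the hg19 bins.
CXCL8: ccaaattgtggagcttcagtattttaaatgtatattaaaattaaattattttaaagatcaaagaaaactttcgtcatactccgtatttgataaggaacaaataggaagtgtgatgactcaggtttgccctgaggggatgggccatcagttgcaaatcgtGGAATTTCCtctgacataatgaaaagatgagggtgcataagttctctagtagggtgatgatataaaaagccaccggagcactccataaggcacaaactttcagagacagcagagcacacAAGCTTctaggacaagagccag
CXCL1: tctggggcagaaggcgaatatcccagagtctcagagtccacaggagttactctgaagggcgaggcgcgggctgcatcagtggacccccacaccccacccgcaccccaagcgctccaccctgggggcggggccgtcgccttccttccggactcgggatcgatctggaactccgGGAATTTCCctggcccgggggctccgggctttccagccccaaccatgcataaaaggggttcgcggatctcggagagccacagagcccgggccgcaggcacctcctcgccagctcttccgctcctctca
CXCL10: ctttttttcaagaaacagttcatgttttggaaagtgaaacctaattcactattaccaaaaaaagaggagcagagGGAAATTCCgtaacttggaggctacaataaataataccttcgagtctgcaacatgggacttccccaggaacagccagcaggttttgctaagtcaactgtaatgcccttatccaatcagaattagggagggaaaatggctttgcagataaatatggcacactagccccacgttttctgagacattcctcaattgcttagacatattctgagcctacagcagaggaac
CCL22: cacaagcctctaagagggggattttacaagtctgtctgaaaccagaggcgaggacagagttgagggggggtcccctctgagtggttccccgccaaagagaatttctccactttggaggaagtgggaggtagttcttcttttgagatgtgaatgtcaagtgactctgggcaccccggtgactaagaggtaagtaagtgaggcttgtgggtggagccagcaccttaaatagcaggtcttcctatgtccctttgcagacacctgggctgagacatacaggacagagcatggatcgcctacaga
The HindIII site occurred in 1 of the 6 matched promoters, that of CXCL8, and in 5.87% of 27305 promoters of this length. GGAATTTCC or its reverse complement occurred in 4 of the 6, those of CXCL8, CXCL1, CXCL2 and CXCL10, and in 0.47% of all promoters. The promoters of CXCL8, CXCL1 and CXCL2 held it on the gene's strand, and that of CXCL10 held it as the reverse complement. The promoters of CCL3 and CCL22 held neither sequence. The promoters of CXCL1 and CXCL2 also share the letters around GGAATTTCC, ctccg before and ctggcccggg after, so they are not separate matches. The motifs were chosen with earlier results of these data known, so 4 of 6 beside 0.47% is a description and not a test. A match describes letters only, and the matrices do not resolve contacts of a single promoter.

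The ATRA matrix held 9632300 contacts, the TPA matrix 10423501 and the untreated matrix 10628045. The median bin had 3272 contacts in ATRA, 3466 in TPA and 3461 in untreated cells. Contacts within chromosomes made up 31.5% in ATRA, 36.3% in TPA and 39.0% in untreated cells, so every measure by distance is read beside the same measure over all bins. The compartment score was computed chromosome by chromosome as the leading eigenvector of the contact correlations, and its unit is the SD over the bins of the chromosome. A positive score marks the A compartment, where active chromatin gathers, and a negative score the B compartment. Scores were obtained for 5630 bins, including all 40 bins of the windows. Of those 40 bins, 6 had a partner bin on another chromosome with at least 20 contacts at 10 or more times the expectation in the summed matrices. The CCL22 bin was one, with 24 contacts at 13.7 times the expectation with chromosome 15 at 41.0 Mb, 9 in ATRA, 9 in TPA and 6 in untreated cells, of 9834 contacts between chromosomes in all. The CCL2 bin was another, with 28 contacts at 10.9 times the expectation with chromosome 16 at 9.0 Mb, 10 in ATRA, 10 in TPA and 8 in untreated cells, of 11447. The CCL5 bin was short of the limit, with 25 contacts at 8.03 times the expectation with chromosome 16 at 4.5 Mb. Of these, 9 were in ATRA, 9 in TPA and 7 in untreated cells. The same count was not made over all bins, so whether 6 of 40 is usual in this line cannot be said. The score within chromosomes is the eigenvector of contacts within the chromosome. Contacts between chromosomes enter it through balancing, which evens the coverage of bins over both kinds of contact, and through the choice of sign. The part of the partner bins in the scores was not tested.

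The clusters on chromosome 4 scored as A in every matrix, and the CCL22 bin had the lowest score in ATRA and untreated cells. The CXCL10 bin had the highest score of the 5 gene bins in each matrix, at 2.47 SD in ATRA, 2.06 SD in TPA and 2.69 SD in untreated cells. The CXCL8 bin followed, at 2.18 SD in ATRA, 1.32 SD in TPA and 1.47 SD in untreated cells. CXCL10 encodes an interferon-induced attractant of activated T cells, and CXCL8 encodes interleukin 8, an attractant of neutrophils. The bin of CCL3, CCL4 and CCL5, attractants of monocytes and T cells, came next, at 1.26 SD in ATRA, 1.00 SD in TPA and 0.66 SD in untreated cells. The bin of CCL2, an attractant of monocytes, scored 0.52 SD in ATRA, -0.34 SD in TPA and -0.27 SD in untreated cells, so it lay near the boundary. The bin of CCL22 and CCL17, ligands of CCR4 made by macrophages and dendritic cells, scored -0.55 SD in ATRA, 0.51 SD in TPA and -0.58 SD in untreated cells. The median bin of all 5630 scored -0.23 SD in ATRA, -0.28 SD in TPA and -0.15 SD in untreated cells. Without replicates it cannot be said which neighbours in this order differ beyond a spread.

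**Figure D1:**
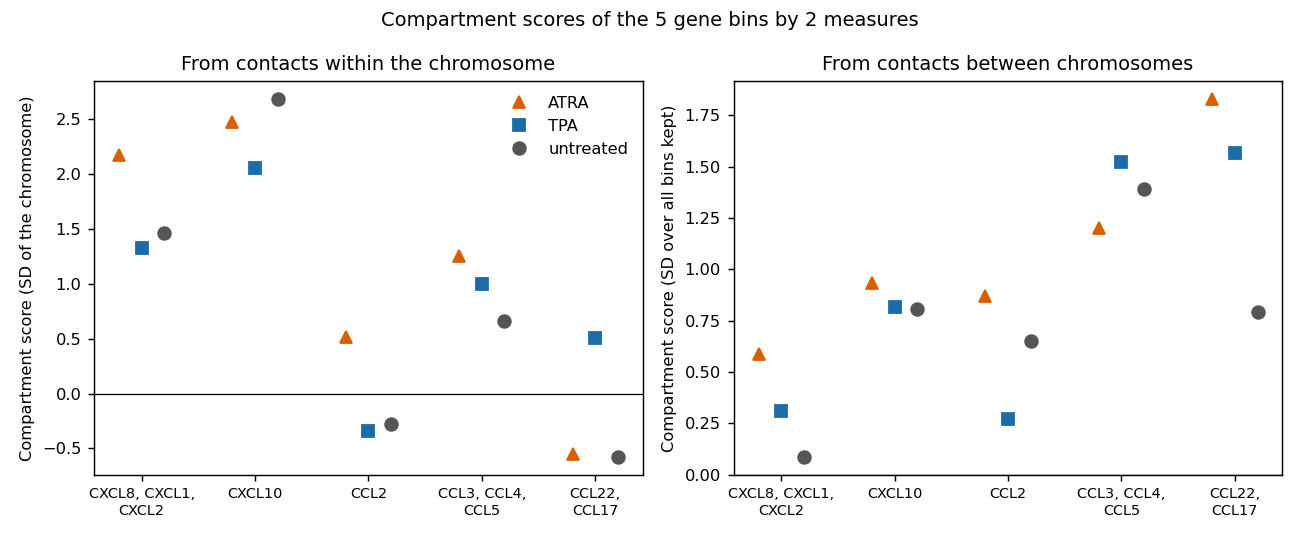
Compartment scores of the 5 gene bins in the ATRA (triangles), TPA (squares) and untreated (circles) matrices, from contacts within the chromosome in SD of the chromosome (left) and from contacts between chromosomes in SD over all bins (right). The CXCL10 bin is highest in each matrix on the left. All 5 bins are above 0 on the right, the CXCL8 bin in untreated cells by only 0.087 SD.

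A score from contacts between chromosomes placed all 5 gene bins on the A side in all 3 matrices, in a different order. Of all 5630 bins, it placed 1842 there in ATRA, 1939 in TPA and 1863 in untreated cells. Of the 158 bins of chromosome 17, it placed 113 there in ATRA, 110 in TPA and 120 in untreated cells. This score is in SD over all bins, so its size is not comparable with that of the score within chromosomes. The CCL22 bin scored 1.83 SD in ATRA, 1.57 SD in TPA and 0.79 SD in untreated cells. The CCL5 bin scored 1.201 SD in ATRA, 1.53 SD in TPA and 1.39 SD in untreated cells. The CXCL10 bin scored 0.94 SD in ATRA, 0.82 SD in TPA and 0.81 SD in untreated cells, and the CCL2 bin 0.87 SD in ATRA, 0.27 SD in TPA and 0.65 SD in untreated cells. The CXCL8 bin was lowest in ATRA and untreated cells, at 0.59 SD in ATRA, 0.31 SD in TPA and 0.087 SD in untreated cells. The side differed between the measures for the CCL22 bin in ATRA, for the CCL2 bin in TPA, and for both bins in untreated cells. Across the bins of a chromosome, the 2 scores correlated at r = 0.573 in ATRA, 0.691 in TPA and 0.610 in untreated cells on chromosome 16 (158 bins). On chromosome 17 (158 bins) r was 0.839 in ATRA, 0.897 in TPA and 0.897 in untreated cells, and on chromosome 4 (376 bins) 0.725, 0.856 and 0.721 in the same order. These bins share libraries and depth, and neighbouring bins are not independent.

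Score changes past 0.5 SD were about as frequent in the windows as among all bins in ATRA, and in TPA most falls were on chromosome 4 and most rises on chromosome 16. In ATRA, 6 of 40 window bins were higher than in untreated cells by over 0.5 SD, against 10.5% of all bins, and 5 were lower, against 12% of all bins. In TPA, 7 of 40 were higher, against 17% of all bins, and 11 were lower, against 18.6% of all bins. Of these 11 falls, 8 were among the 15 window bins of chromosome 4, where 18.1% of all 376 bins fell. Of the 7 rises, 5 were among the 11 bins of the chromosome 16 window, where 17.1% of 158 bins rose. With 1 matrix a condition, these shares describe the matrices and single out no window.

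A bin was said to cross where the treated and untreated scores had opposite signs and both were more than 0.5 SD from 0. No window bin crossed in ATRA, where 0.124% of all bins crossed from B to A and 0.48% from A to B. In TPA, 2 window bins crossed from B to A, against 1.07% of all bins, and both are on chromosome 16, the CCL22 bin and its right neighbour. In TPA 1 window bin crossed from A to B, against 2.29% of all bins, and it lies 1 Mb beyond the CXCL10 bin on chromosome 4.

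**Figure D2:**
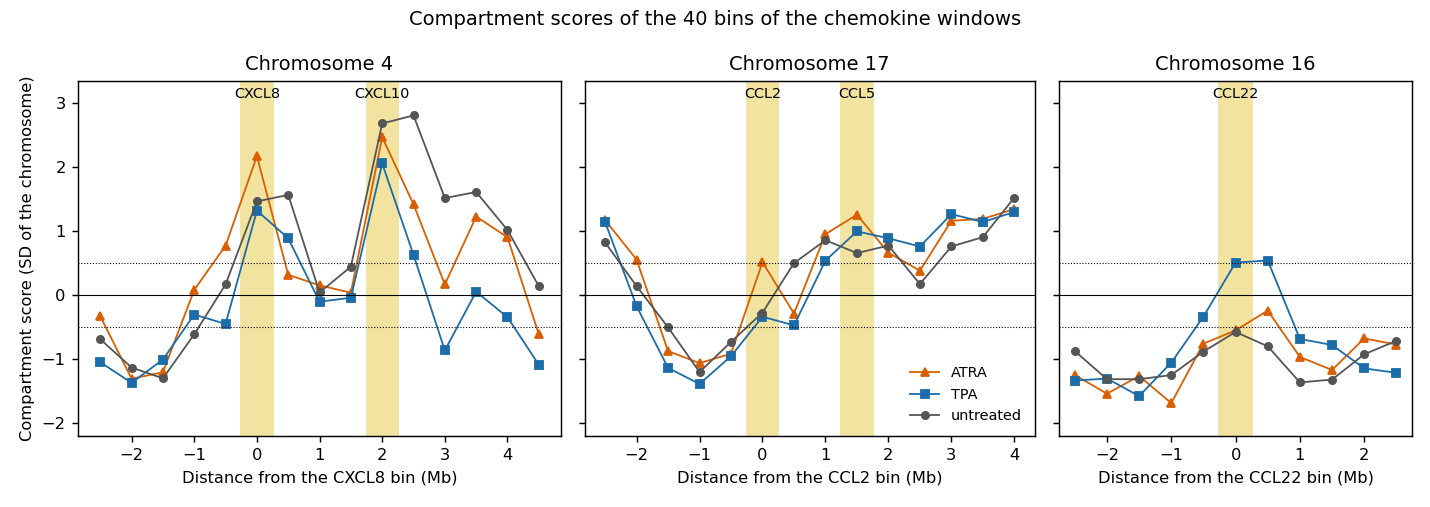
Compartment scores (SD of the chromosome) of the 40 window bins against the distance in Mb from the CXCL8, CCL2 or CCL22 bin, in the ATRA, TPA and untreated matrices; shaded columns are gene bins, and dotted lines mark 0.5 SD on either side. TPA lies below untreated to the right of the CXCL10 bin and above untreated at the CCL22 bin and its right neighbour.

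The segment of CCL22 and CCL17 moved toward A in TPA by the score within chromosomes, and in both treatments by the score between chromosomes. The TPA score of the CCL22 bin was higher than the untreated score by 1.09 SD, and 97.2% of all bins had a smaller rise or a fall. Its right neighbour, chr16:57500001-58000000, scored -0.24 SD in ATRA, 0.54 SD in TPA and -0.80 SD in untreated cells. The rise of this neighbour in TPA was 1.34 SD, above 98.5% of all bins. The TPA rises were 0.55 SD in the bin left of CCL22 and 0.68 SD in the bin 1 Mb to its right, where the scores stayed on the B side at -0.34 SD and -0.69 SD in TPA. In the left bin the share of contacts at 2 Mb or more within the chromosome that were with A bins went against the score, with 30.01% in ATRA (26.6 to 33.6) and 22.9% in TPA (20.1 to 25.9), against 29.5% in untreated cells (26.5 to 32.6). The rise of the CCL22 bin in TPA was kept under each of 4 other ways of scoring, but its crossing was lost under all 4. The rise was 0.832 to 1.248 SD within the chromosome, and 0.774 SD between chromosomes, where the unit is the SD over all bins. With bins down to 0.1 times the median coverage kept, it scored 0.45 SD in TPA and -0.61 SD in untreated cells, and without balancing 0.12 SD in TPA and -1.13 SD in untreated cells. Scored per arm, or between chromosomes, it was not beyond the limit on the B side in untreated cells.

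In ATRA the CCL22 bin depended on which contacts were read. Within the chromosome its score was higher than in untreated cells by 0.026 SD, near the middle of all bins. Between chromosomes it was higher by 1.04 SD in ATRA, above 99.6% of all bins, and by 0.77 SD in TPA, above 96.0% of all bins. Its right neighbour was higher between chromosomes by 0.98 SD in ATRA, above 99.5% of all bins, and by 0.65 SD in TPA. Per arm, the CCL22 bin was at 0.14 SD in ATRA, 0.74 SD in TPA and -0.09 SD in untreated cells. On chromosome 16 the score also followed the arms, with r = 0.383 in ATRA, 0.309 in TPA and 0.513 in untreated cells, and the part of this in the B score of the CCL22 bin was not tested.

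Shares of contacts, which carry a counting error, moved little at the CCL22 bin itself, while the share with other chromosomes fell over chromosome 16 as a whole. Of its contacts with other chromosomes, 56.97% were with A bins in ATRA (55.1 to 58.8), 59.2% in TPA (57.502 to 60.8) and 57.2% in untreated cells (55.5 to 58.8). The odds ratio to untreated cells was 0.993 in ATRA (0.897 to 1.098), with 1.09 in TPA (0.986 to 1.197). The share thus changed by -0.18 percentage points in ATRA and 2.02 points in TPA. Over all bins, the median change of this share was -1.95 percentage points in ATRA and -0.043 points in TPA. Over all bins of chromosome 16 the median change was -2.98 points in ATRA and -2.41 points in TPA, so the CCL22 bin lay above its chromosome in both. Of its contacts within the chromosome at 2 Mb or more, 31.6% were with A bins in ATRA (27.6 to 35.8), 33.8% in TPA (30.3 to 37.5) and 30.5% in untreated cells (27.3 to 33.7). The intervals overlap in each case, so at this depth neither share differed detectably from its own value in untreated cells. These intervals do not take in the change of the rest of chromosome 16.

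On chromosome 4, the region just beyond CXCL10 had lower scores within the chromosome in both treatments, lowest in TPA, while the CXCL10 bin kept a high score. Its share of contacts with A bins of the chromosome was also lower in both, and lowest in TPA. By the score between chromosomes ATRA was the lower of the treatments at both bins just beyond CXCL10. The bin right of CXCL10, chr4:77000001-77500000, scored 1.42 SD in ATRA, 0.63 SD in TPA and 2.81 SD in untreated cells. The bin 1 Mb from it, chr4:77500001-78000000, scored 0.17 SD in ATRA, -0.86 SD in TPA and 1.52 SD in untreated cells. In TPA the 5 bins right of CXCL10 fell by 2.18, 2.38, 1.56, 1.36 and 1.23 SD in order along the chromosome. The crossing of the bin 1 Mb from CXCL10 was kept per arm, at -0.68 SD in TPA and 0.79 SD in untreated cells, and with the lower coverage minimum. It was lost without balancing, at 0.007 SD in TPA and 1.79 SD in untreated cells, and between chromosomes. The score there fell under all 4, by 1.465 SD or more within the chromosome, but fell by 0.45 SD between chromosomes, short of the 0.5 SD limit. In ATRA the first 2 of the 5 bins right of CXCL10 fell by 1.39 and 1.35 SD, the next 2 by 0.39 and 0.11 SD, and the fifth by 0.753 SD. Under the other ways of scoring, the bin 1 Mb from CXCL10 differed in ATRA by -1.348 to -0.535 SD within the chromosome. Between chromosomes it differed by -0.525 SD, in SD over all bins. The CXCL10 bin itself fell by 0.21 SD in ATRA and 0.63 SD in TPA.

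Within chromosome 4, the share of contacts at 2 Mb or more with A bins fell beyond counting error at both bins just beyond CXCL10. These contacts also enter the score, and A bins were set by the score of the summed matrix. The bins were chosen after their scores were seen, so the share is no separate check of the score. At 1 Mb from CXCL10, 44.2% of contacts at 2 Mb or more were with A bins in ATRA (40.8 to 47.7) and 38.9% in TPA (36.1 to 41.9), against 56.2% in untreated cells (52.8 to 59.6). In the adjacent bin, the share was 48.2% in ATRA (44.8 to 51.7), with 46.3% in TPA (43.3 to 49.4), against 60.6% in untreated cells (57.3 to 63.8). For the CXCL10 bin, it was 61.3% in ATRA (57.7 to 64.7), with 54.8% in TPA (51.6 to 58.1), against 62.4% in untreated cells (59.0 to 65.6). The TPA and untreated intervals of the CXCL10 bin do not overlap, and the ATRA and untreated ones do. With other chromosomes, the share of contacts with A bins changed by fewer points at both bins beyond CXCL10. For the CXCL10 bin in ATRA it changed by more, at -3.90 points with other chromosomes against -1.13 points within the chromosome. In the adjacent bin the share with other chromosomes was 46.2% in ATRA (44.5 to 48.0), 50.04% in TPA (48.2 to 51.9) and 51.5% in untreated cells (49.7 to 53.4), so the ATRA and untreated intervals do not overlap. At 1 Mb from CXCL10, 43.6% were with A bins in ATRA (41.8 to 45.4), 45.7% in TPA (43.8 to 47.6) and 46.6% in untreated cells (44.8 to 48.5). The score between chromosomes fell there by 0.53 SD in ATRA and 0.45 SD in TPA, and for the CXCL10 bin it differed from untreated cells by 0.13 SD in ATRA and 0.014 SD in TPA. In the adjacent bin the score between chromosomes was -0.016 SD in ATRA, 0.42 SD in TPA and 0.68 SD in untreated cells. It fell there by 0.69 SD in ATRA and by 0.26 SD in TPA, and 24.5% of all bins fell by more in TPA.

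The CXCL8 bin, with the neutrophil attractants CXCL8, CXCL1 and CXCL2, had a higher score in ATRA while its right neighbour had a lower one. The gene bin was higher by 0.71 SD in ATRA, above 95.8% of all bins, and differed by -0.14 SD in TPA. The ATRA difference was 0.40 SD without balancing and 0.34 SD per arm, both short of 0.5 SD. The bin right of CXCL8, chr4:75000001-75500000, scored 0.32 SD in ATRA, 0.89 SD in TPA and 1.57 SD in untreated cells. The bin left of CXCL8 scored 0.77 SD in ATRA, -0.45 SD in TPA and 0.17 SD in untreated cells, and so was higher in ATRA by 0.61 SD and lower in TPA by 0.62 SD. The right neighbour fell by 1.251 SD in ATRA, and 0.728% of all bins fell by more. Its score between chromosomes differed by -0.452 SD in ATRA. Of its contacts at 2 Mb or more within the chromosome, 46.7% were with A bins in ATRA (41.9 to 51.6). In untreated cells this was 53.3% (48.95 to 57.6), so the intervals overlap. Between chromosomes, the CXCL8 bin was higher by 0.50 SD in ATRA and 0.22 SD in TPA. Its share of contacts with A bins of other chromosomes was 48.2% in ATRA (46.2 to 50.2), 48.3% in TPA (46.4 to 50.2) and 48.0% in untreated cells (46.0 to 50.1). Within chromosome 4, 60.03% of its contacts at 2 Mb or more were with A bins in ATRA (56.4 to 63.5), 53.5% in TPA (50.1 to 56.8) and 56.95% in untreated cells (53.7 to 60.2), with overlapping intervals.

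On chromosome 17, the CCL2 bin and the CCL5 bin lie 1.5 Mb apart on a slope from B to A. The 3 bins left of the CCL2 bin were on the B side in every matrix, and the bins from 1 Mb right of it to the end of the window were on the A side in every matrix. Over chromosome 17 the score followed the arms with r = 0.266 in ATRA, 0.299 in TPA and 0.013 in untreated cells. The part of this in the differences of the CCL2 and CCL5 bins was not tested. The CCL2 bin was higher by 0.79 SD in ATRA, above 97.0% of all bins, and differed by -0.064 SD in TPA. Per arm the differences were 0.588 SD in ATRA and -0.448 SD in TPA. Between chromosomes the ATRA difference was 0.22 SD, short of 0.5 SD. Its share of contacts with A bins within the chromosome at 2 Mb or more was 73.4% in ATRA (69.9 to 76.7), with 65.2% in TPA (61.5 to 68.7), against 73.2% in untreated cells (69.9 to 76.3). By this count the TPA value was below untreated beyond counting error, although the score over the whole chromosome differed little. The bin to its right, chr17:33000001-33500000, scored -0.29 SD in ATRA, -0.47 SD in TPA and 0.50 SD in untreated cells. Its share was 68.6% in ATRA (64.5 to 72.4), with 59.8% in TPA (55.6 to 63.8), against 74.8% in untreated cells (71.3 to 78.0).

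The CCL5 bin rose by 0.60 SD in ATRA and differed by 0.34 SD in TPA within the chromosome. Per arm the ATRA difference was 0.46 SD, short of 0.5 SD, and between chromosomes it had the other sign, at -0.19 SD. Of its contacts with other chromosomes, 51.4% were with A bins in ATRA (49.8 to 53.0), 56.3% in TPA (54.7 to 57.8) and 55.8% in untreated cells (54.3 to 57.4). The odds ratio was 0.837 in ATRA (0.766 to 0.914), with 1.02 in TPA (0.931 to 1.11). The CXCL10 bin had a similar fall of this share in ATRA, with 50.6% in ATRA (48.5 to 52.8), 54.3% in TPA (52.1 to 56.4) and 54.5% in untreated cells (52.4 to 56.6), and an ATRA odds ratio of 0.855 (0.758 to 0.965). For the CCL2 bin the odds ratio was 0.958 in ATRA (0.874 to 1.05), with 0.955 in TPA (0.873 to 1.04). Over the 40 window bins the median change of the share was -3.07 points in ATRA and -0.62 points in TPA, beside -1.95 and -0.043 points over all bins. In ATRA the median was -2.97 points over chromosome 17, -2.98 over chromosome 16 and -1.43 over chromosome 4. In TPA these were -0.89, -2.41 and 1.01 points. The ATRA change of the CCL5 bin, -4.43 points, was near the lower quartile of chromosome 17, -4.29 points. That of the CXCL10 bin, -3.90 points, was below the lower quartile of chromosome 4, -2.71 points.

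Coverage of the gene bins was unequal, and it was lower in ATRA at CCL22. Relative to the median bin, the CCL5 bin had 1.65 times the contacts in ATRA, 1.63 in TPA and 1.77 in untreated cells. The CCL2 bin had 1.52 in ATRA, 1.58 in TPA and 1.71 in untreated cells, and the CCL22 bin 1.254 in ATRA, 1.458 in TPA and 1.596 in untreated cells. The CXCL8 bin had 1.096 in ATRA, 1.119 in TPA and 1.081 in untreated cells, and the CXCL10 bin 0.996 in ATRA, 1.00 in TPA and 1.06 in untreated cells. The bins on chromosomes 16 and 17 were thus richer in contacts than the bins on chromosome 4 in every matrix.

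Coverage in ATRA was under 0.8 times untreated in 4 of the 40 window bins, against 7.76% of all bins, and more than 25% above untreated in 0, against 0.32% of all bins. In TPA it was under 0.8 times untreated in 0, against 0.0533% of all bins, and more than 25% above in 0, against 0.0178% of all bins. The CCL22 bin was the one gene bin past this limit, at 0.786 times untreated in ATRA (0.755 to 0.818) and 0.914 times in TPA (0.880 to 0.950). The others were its right neighbour on chromosome 16, at 0.717 times in ATRA (0.686 to 0.750), and 2 bins at the right end of the chromosome 17 window. Those, 2 and 2.5 Mb right of the CCL5 bin, were at 0.790 times (0.753 to 0.829) and 0.696 times (0.664 to 0.730) in ATRA. Coverage in ATRA was lower over chromosome 17 as a whole, with a median ratio of 0.866, and over chromosome 16, with a median of 0.939, but not over chromosome 4, with a median of 1.05. The bin right of the CCL5 bin had few contacts in all 3 matrices, at 0.357 of the median bin in ATRA, 0.418 in TPA and 0.446 in untreated cells.

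**Figure D3:**
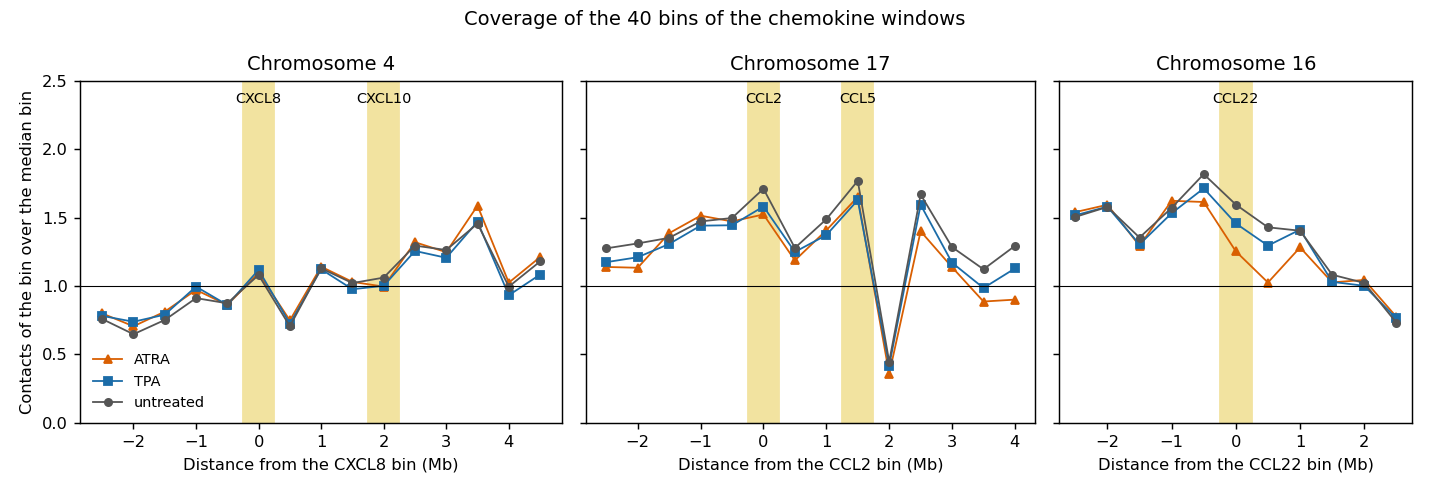
Contacts of each of the 40 window bins over the median bin of its matrix, against the distance in Mb from the CXCL8, CCL2 or CCL22 bin, for ATRA, TPA and untreated. ATRA lies below untreated at the CCL22 bin and its right neighbour and at the right end of the chromosome 17 window, and all 3 matrices dip beside the CCL5 bin.

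Contacts of the gene bins with their surroundings fell in both treatments by about as much as for all bins. At 0.5 to under 2 Mb the 5 gene bins held 1815 contacts in ATRA and 2111 in TPA, against 2971 in untreated cells. Relative to the matrix totals the ratio to untreated was 0.674 in ATRA (0.635 to 0.715), with 0.724 in TPA (0.685 to 0.766), beside 0.655 and 0.733 over all bins. At 2 to under 10 Mb it was 0.863 in ATRA (0.800 to 0.930), with 0.985 in TPA (0.917 to 1.06), beside 0.876 and 1.08 over all bins. At 10 to under 50 Mb it was 0.944 in ATRA (0.885 to 1.01), with 1.01 in TPA (0.953 to 1.08), beside 0.971 and 1.09. Contacts with other chromosomes were at 1.01 times untreated in both ATRA and TPA (0.992 to 1.04 and 0.989 to 1.03), below the 1.12 in ATRA and 1.04 in TPA over all bins. This ratio differed between the chromosomes of the gene bins. In ATRA it was 1.008 over all bins of chromosome 17, 1.045 over chromosome 16 and 1.175 over chromosome 4. In TPA it was 1.033, 1.025 and 1.075 in that order.

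Among the 5 gene bins, the CXCL8 bin had the smallest deficit of near contacts, with 196 in ATRA and 250 in TPA at 0.5 to under 2 Mb, against 279 in untreated cells. Its ratio was 0.775 in ATRA (0.642 to 0.934), above 85.5% of all bins, and 0.914 in TPA (0.767 to 1.09), above 93.5% of all bins and with an interval that includes 1. Its contacts with other chromosomes were at 1.17 times untreated in ATRA (1.103 to 1.235) and 1.13 times in TPA (1.07 to 1.19), beside 1.175 in ATRA and 1.075 in TPA over all bins of chromosome 4. The CCL22 bin had fewer contacts in ATRA at every distance class up to 50 Mb, at 0.601 times at 0.5 to under 2 Mb (0.535 to 0.675), 0.641 times at 2 to under 10 Mb (0.535 to 0.766) and 0.723 times at 10 to under 50 Mb (0.624 to 0.837). Over all bins of chromosome 16 the ATRA ratios in these classes were 0.609, 0.859 and 0.893, and 26.3% of all bins were below the CCL22 bin in the nearest class, so that only the farther classes lay below the chromosome beyond counting error. In TPA its ratios were 0.741 (0.666 to 0.824), 0.819 (0.696 to 0.963) and 0.893 (0.780 to 1.02) in the same classes. Its contacts with other chromosomes were at 0.914 times untreated in ATRA (0.869 to 0.960), below the 1.12 over all bins and the 1.045 of chromosome 16. Coverage of this bin was also lowest in ATRA, and its part in these ratios was not tested.

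**Figure D4:**
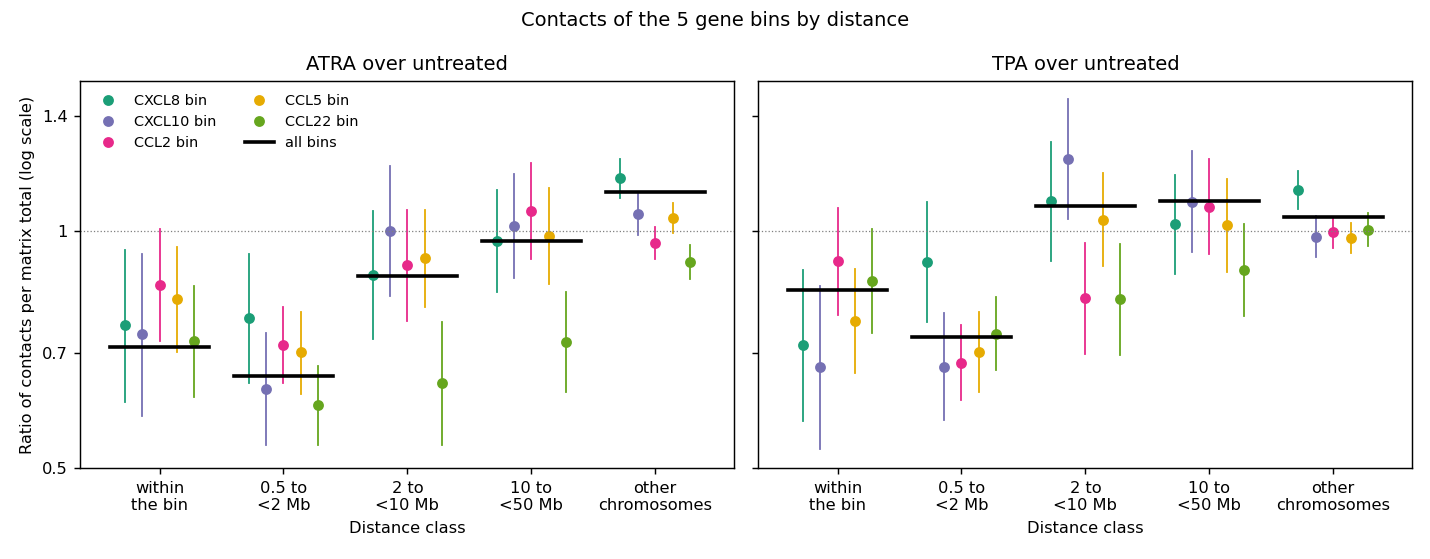
Contacts of the 5 gene bins by distance class in ATRA (left) and TPA (right) over untreated, as ratios of contacts per matrix total on a log scale, with exact 95% counting intervals; black lines give all bins. The CXCL8 bin is highest at 0.5 to under 2 Mb in both panels, and the CCL22 bin is lowest from 0.5 to under 50 Mb in ATRA.

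Contacts between the clusters of one chromosome did not differ detectably between conditions. The CXCL8 and CXCL10 bins, 2.0 Mb apart, had 22 contacts in ATRA, 21 in TPA and 26 in untreated cells. Over the chromosome mean at that distance this was 1.75 in ATRA (1.09 to 2.64), 1.26 in TPA (0.779 to 1.92) and 1.49 in untreated cells (0.972 to 2.18). The CCL2 and CCL5 bins, 1.5 Mb apart, had 50 contacts in ATRA, 47 in TPA and 74 in untreated cells, at 1.86 times the mean in ATRA (1.38 to 2.45), 1.51 times in TPA (1.11 to 2.01) and 1.74 times in untreated cells (1.37 to 2.19). After balancing, which gives all bins equal coverage, this pair was at 0.836 in ATRA, 0.756 in TPA and 0.852 in untreated cells. Its excess was thus present in raw contacts and absent once the high coverage of both bins was corrected. The ratio of treated to untreated had intervals that include 1 for both pairs and both treatments. The widest was that of the CXCL8 and CXCL10 bins in TPA, on the log2 scale -0.24 (-1.15 to 0.64).

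Around CCL22, contacts with the adjacent bins stood above the chromosome mean. The CCL22 bin had 197 contacts with its left neighbour in ATRA and 246 in TPA, against 347 in untreated cells, at 2.44 times the mean in ATRA (2.11 to 2.81), 2.40 times in TPA (2.11 to 2.72) and 2.26 times in untreated cells (2.03 to 2.51). With its right neighbour it was at 1.86 times in ATRA (1.57 to 2.18), 2.06 times in TPA (1.79 to 2.35) and 1.57 times in untreated cells (1.38 to 1.78). At 1 Mb to the left it was at 0.557 times in ATRA (0.345 to 0.851), 0.709 times in TPA (0.488 to 0.996) and 0.846 times in untreated cells (0.641 to 1.096). At 1 Mb to the right it was at 1.27 times in ATRA (0.938 to 1.69), 1.397 times in TPA (1.08 to 1.78) and 1.455 times in untreated cells (1.18 to 1.77). After balancing, the adjacent bins were closer to the mean, on the left at 1.47 in ATRA, 1.36 in TPA and 1.28 in untreated cells, and on the right at 1.79 in ATRA, 1.59 in TPA and 1.16 in untreated cells.

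Contacts that cross over a gene bin, between the 3 bins on one side and the 3 on the other, differed most from untreated at CXCL8 in TPA among the 5 gene bins. Over the chromosome mean they were at 1.16 in ATRA (0.983 to 1.37) and 1.23 in TPA (1.07 to 1.41), against 0.896 in untreated cells (0.764 to 1.04). The TPA and untreated intervals do not overlap. After balancing, the CXCL8 values were 1.27 in ATRA, 1.33 in TPA and 0.961 in untreated cells. At the CCL2 bin they were at 1.41 in ATRA (1.246 to 1.59), 0.942 in TPA (0.820 to 1.08) and 1.12 in untreated cells (0.999 to 1.242). There the ATRA and untreated intervals do not overlap. After balancing, the CCL2 values were 0.793 in ATRA, 0.616 in TPA and 0.806 in untreated cells, so the ATRA excess was present in raw contacts only. At the CXCL10 bin the raw values were 1.02 in ATRA, 1.07 in TPA and 0.950 in untreated cells, with intervals that include 1. After balancing they were 0.699 in ATRA, 0.773 in TPA and 0.654 in untreated cells, and 15.4% of 364 bins of the chromosome were lower still in ATRA, 17.9% in TPA and 6.04% in untreated cells. At the CCL22 bin the raw values were 1.057 in ATRA, 1.285 in TPA (1.142 to 1.441) and 1.055 in untreated cells (0.938 to 1.182). After balancing, the CCL22 values were 0.763 in ATRA, 0.876 in TPA and 0.703 in untreated cells, so the TPA excess over the mean was present in raw contacts only. At the CCL5 bin the raw values were 0.939 in ATRA, 0.810 in TPA and 0.865 in untreated cells. After balancing they were 0.833 in ATRA, 0.844 in TPA and 0.847 in untreated cells.

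By contact, the partners of the gene bins over 5 Mb away on the same chromosome were mostly A bins for the CXC clusters. The CCL22 bin met the bins at 67.0 and 67.5 Mb of chromosome 16 most often for their distance. With the bin at 67.5 Mb it had 15 contacts in ATRA and 26 in TPA, against 27 in untreated cells, at 4.13, 5.52 and 6.62 times the mean in that order of conditions. That partner scored 0.37 SD in ATRA and 1.26 SD in TPA, and lay on the boundary in untreated cells. The CXCL8 bin met bins 17.5 and 9.0 Mb away on chromosome 4, at 3.36 and 3.23 times the mean over the summed matrices, with 28 and 37 contacts. The CXCL10 bin met a bin 70.0 Mb away, at 6.06 times the mean with 20 contacts in all. At these counts no difference between conditions could be read for a single partner.

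By score, the 2 bins most like each gene bin were found at least 5 Mb away, by the Euclidean distance over the 3 scores. For the CCL22 bin they were at 30.5 and 81.5 Mb of chromosome 16, among 139 candidates, with scores of -0.41 and -0.43 SD in ATRA, 0.52 and 0.40 SD in TPA, and -0.47 and -0.49 SD in untreated cells. For the CXCL8 bin they were at 106.0 and 113.0 Mb of chromosome 4, among 357 candidates, and for the CXCL10 bin at 140.0 and 3.0 Mb. For the CCL5 bin they lay on chromosome 17 at score distances of 0.13 and 0.20 SD. For the CCL2 bin they were at 59.0 and 49.0 Mb, at score distances of 0.60 and 0.67 SD, the least close of the 5.

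Between chromosomes the clusters rarely met. The gene bins of chromosomes 16 and 17 had 0 contacts in ATRA, 4 in TPA and 4 in untreated cells, and those of chromosomes 4 and 17 had 3 in ATRA, 2 in TPA and 1 in untreated cells. Those of chromosomes 4 and 16 had 1 in ATRA, 1 in TPA and 0 in untreated cells. Summed over whole windows, chromosomes 16 and 17 met 104 times in ATRA, 111 in TPA and 89 in untreated cells. This was 0.825 times the expectation from coverage in ATRA (0.674 to 0.999), 0.848 times in TPA (0.698 to 1.02) and 0.707 times in untreated cells (0.568 to 0.870). For the other pairs of windows the intervals include 1 in each matrix.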

How the data were processed

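Per the labels' protocols, HindIII cut the crosslinked chromatin before ligation. Bowtie, HiCUP and HOMER are named in the series' design text, and HOMER 4.7 and hg19 in the submitters' processing notes. Their settings were not given in the sources used here. As deposited, the values are 3 matrices of raw contact counts between 500 kb bins, without normalization, per the file headers and the values. Diagonal values, which hold both ends of a contact, were divided by 2. The 5630 bins that reached 0.2 times the median coverage in all matrices were kept and balanced in 60 iterations. Contacts were divided by the mean at their distance, and each chromosome was scored by the leading eigenvector of its correlation matrix, with the next eigenvector used if the leading one tracked the arms (r above 0.7). Its sign followed contact with chromosome 19 in the summed matrix. A bins for shares were set on the summed matrix. A contact between members of a set was counted once. The median bin held 3272 contacts in ATRA, 3466 in TPA and 3461 in untreated cells, and PCR duplicates are not covered by the intervals.

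The members, the neighbour list, the motifs and the alternatives were chosen with earlier results of these data known. The genes named are the 10 members and the listed neighbours. The bins named are those that crossed 0.5 SD or passed the coverage limits, 2 bins most like and 2 most in contact; the bins beside the gene bins were added after their values were seen. The share of contacts with A bins at 2 Mb or more and the contacts crossing a bin were also added then. The eigenvector and interval functions were tested on simulated data. Python 3.11.15, numpy 2.4.6 and scipy 1.17.1 were used.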

Additional observations from a re-analysis of the deposited data

How the results depend on the processing

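Of 126 alternative values, 88 stayed within 0.5 SD (scores), the counting interval (contacts and shares) or 1.5 times (counts of bins) of the reported value, 36 moved farther, and 2 turned the direction of a change past 0.5 SD. Scores between chromosomes were held to the same 0.5 SD limit, although their unit is the SD over all bins and their size is not comparable. Among the 88, differences short of that limit also changed sign: the CXCL8 bin in TPA from -0.14 SD to 0.24 SD per arm and 0.22 SD between chromosomes, the CXCL10 bin in ATRA from -0.21 SD to 0.20 SD and 0.13 SD, and the CCL2 and CCL5 pair in ATRA from 0.093 to -0.027 (log2) after balancing. The first past the limit that turned was the CXCL10 bin in TPA, at -0.63 SD as reported and 0.014 SD from contacts between chromosomes, and the second the CCL5 bin in ATRA, at 0.60 SD and -0.19 SD. The CCL22 bin in ATRA moved to 0.80 SD without balancing and 1.04 SD between chromosomes, from 0.026 SD. Window bins up in ATRA numbered 6 as reported, 2 per arm, 12 at 0.25 SD and 0 at 1 SD. Those down numbered 5, with 3 between chromosomes, 10 at 0.25 SD and 3 at 1 SD. In TPA those up numbered 7, with 3 per arm, 3 between chromosomes, 11 at 0.25 SD and 2 at 1 SD, and those down 11, with 6 between chromosomes, 17 at 0.25 SD and 5 at 1 SD. Of the 2 crossings from B to A in TPA, 0 were left without balancing, per arm, between chromosomes, at the lower coverage minimum or at 1 SD. The 1 crossing from A to B in TPA became 0 between chromosomes and at 1 SD, and 3 at 0.25 SD; without balancing, the 1 crossing was of another bin. In ATRA, 1 crossed each way at 0.25 SD. The median change of the A share became -1.18 points in ATRA for the share with chromosomes 17, 19, 20 and 22, and -1.48 points in TPA with A bins of the untreated matrix. Bins with lower coverage in ATRA numbered 2 over the matrix total, 11 at 1.1-fold and 0 at 1.5-fold. At 1.1-fold, TPA had 1 higher and 3 lower. The near-contact ratio became 0.834 in ATRA and 0.835 in TPA within the chromosome, and 0.725 in ATRA after balancing. The cause was not tested, beyond that smaller limits call more bins by construction.

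No paired analysis was possible because the numbered libraries of TPA and untreated cells are merged in 1 matrix each and ATRA has 1 library; for the same reason leaving out a library was not possible. A bin pair far from the diagonal held few contacts, so differences for single pairs were not detectable at this depth.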
